A study of Mus musculus with 12 samples.

Results

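The genotype by tunicamycin interaction was examined in mouse liver: for each gene, the change that tunicamycin made in Ire1α null livers minus the change it made in control livers. It used all 12 arrays of the series, 3 in each of 4 groups defined by the sample titles, and 14569 genes measured above the dimmest 30% of probe sets. Control livers are titled Fe+CRE+ and null livers Fe-CRE+, so both genotypes carry the label CRE+. The labels used here name neither the promoter that drives Cre nor the deleted part of the Ire1α gene. All mice were C57Bl/6J and 3 months old. They received by intraperitoneal injection either tunicamycin, at 2 µg per gram of body weight, or a dextrose vehicle, and the liver was taken 8 hours later. Total RNA of each liver was read on an Affymetrix array as an intensity for each probe set. The labels call the 3 arrays of a group biological replicates, and every p-value below measures the spread between these samples.

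Tunicamycin blocks the first step of N-linked glycosylation, so that glycoproteins misfold in the endoplasmic reticulum (ER). The ER membrane carries 3 classes of stress sensor: IRE1, whose RNase starts the splicing of the Xbp1 transcript and so yields the transcription factor XBP1s; PERK, a kinase that slows translation and raises ATF4 and CHOP; and ATF6, which is cut from the membrane and enters the nucleus. XBP1s is best known in secretory cells for genes of protein entry into the ER, folding, degradation and transport to the Golgi, whereas ATF4 and CHOP act on amino acid supply, tRNA charging and cell death genes. In the hepatocyte, which secretes most plasma proteins, many ER chaperone genes can be reached by more than 1 of these arms.

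Values are log2(intensity + 16) after quantile normalization. A response is the mean of the 3 tunicamycin arrays minus the mean of the 3 vehicle arrays of a genotype, and the difference of the responses is the null response minus the control response, each ± the standard error (SE) of the limma fit. The threshold for calling a gene was a Benjamini-Hochberg adjusted p of 0.05 over all 14569 genes, and rise, fall, higher and lower are used only of called genes. A like response was called when a gene passed in both genotypes in the same direction and the 95% interval of the difference of its responses lay within 1 (log2, 2-fold) of 0. Genes that met neither rule remain undecided: the median SE of the difference was 0.28.

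The arrays were liver by their markers, since the mean log2 level of 13 hepatocyte markers lay between 13.1 and 13.3 on every array. Trimmed mean intensities lay between 227.9 and 302.8 before normalization. Null tunicamycin replicate 2 also carried transcripts of kidney: 14 of 21 kidney markers measured lay more than 1 above the highest of the other 11 arrays. Umod, which encodes the urinary protein uromodulin, read 13.14 there and at most 6.55 elsewhere, and Kap, an androgen-regulated kidney transcript, 12.84 against at most 5.98. The mean of the kidney list was 9.45 on the highest null tunicamycin array and 5.57 on the lowest, and between 5.49 and 5.89 in the other 3 groups. The calls, the like responses and the list counts were therefore repeated without that array. The 5' to 3' actin ratio, a measure of RNA integrity, was higher with vehicle, at 0.757 ± 0.323 (SD, n = 3) in control and 0.50 ± 0.18 in null livers, than with tunicamycin, at 0.328 ± 0.0533 and 0.309 ± 0.116. With the ratio as a covariate 109 genes were called in the interaction, against 122 without it, and 103 of the 122 were called again. Srprb, Syvn1, Tram1, Txndc5 and Cflar were among those that lost their call. Like responses numbered 678 with this covariate and 1301 without it. The Gapdh 5' to 3' ratio was 0.529 ± 0.220 and 0.372 ± 0.241 with vehicle, and with tunicamycin 0.556 ± 0.029 in control and 0.401 ± 0.033 in null livers, where the genotypes did not overlap. With it as a covariate 126 genes were called, and among the genes named below Srprb, Rpa2, Cflar, Zfp975 and Camta1 were not.

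Tunicamycin raised 1692 genes (11.6% of those tested) and lowered 1943 (13.3%) in control livers. In null livers it raised 1107 (7.6%) and lowered 1339 (9.19%). The response differed between genotypes for 122 genes: 120 (0.824%) had a lower response in null livers and 2 (0.0137%), Arhgef2 and Bid, a higher one. At an unadjusted p under 0.05 there were 792 genes with a negative and 411 with a positive difference. Over the 120 genes the median response was 1.82 in control and 0.28 in null livers, and the differences ran from -0.83 to -2.84 with a median of -1.47, against a median of 0.03 over all genes. At least a 2-fold difference was seen in 113 of the 120. With 1 array left out the number of calls lay between 23 (without control tunicamycin replicate 2) and 129 (without null tunicamycin replicate 2). All 122 genes kept their sign each time, but these fits reuse the arrays that selected the genes, so a kept sign is no separate support.

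Most of these genes were induced in control livers and much less in null livers. Of the 120, 45 rose in both genotypes, 69 rose in control livers while their null response was not called, and 4 rose in control livers and fell in null livers (Fkbp14, Fam114a1, Rpain and Vamp7). Plcxd2 fell in both, and 1 gene fell in null livers without a call in control livers. The difference between genotypes lay in the tunicamycin arrays: null minus control had a median of 0.03 with vehicle, from -0.64 to 0.77, and of -1.42 with tunicamycin, from -3.06 to -0.67. With vehicle, 0 genes were called between genotypes by limma, 595 had an unadjusted p under 0.05, and the smallest adjusted p was 0.969. These comparisons share arrays, so their values stand side by side as a description of the same genes.

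A like response was found for 1301 genes (8.93% of those tested), 526 of them rises and 775 falls. They are 68.9% of the 1889 genes that were called the same way in both genotypes: 60.3% of the 872 rises and 76.2% of the 1017 falls. Of the remainder, 47 were called in the interaction and 541 met neither rule. Another 5 genes were called in opposite directions. Only a gene called in both genotypes can be like, so the like share of a list also depends on how many of its genes responded. The median difference over all genes was 0.03 after quantile normalization, 0.01 with arrays only centred and 0.06 as deposited.

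**Figure D1:**
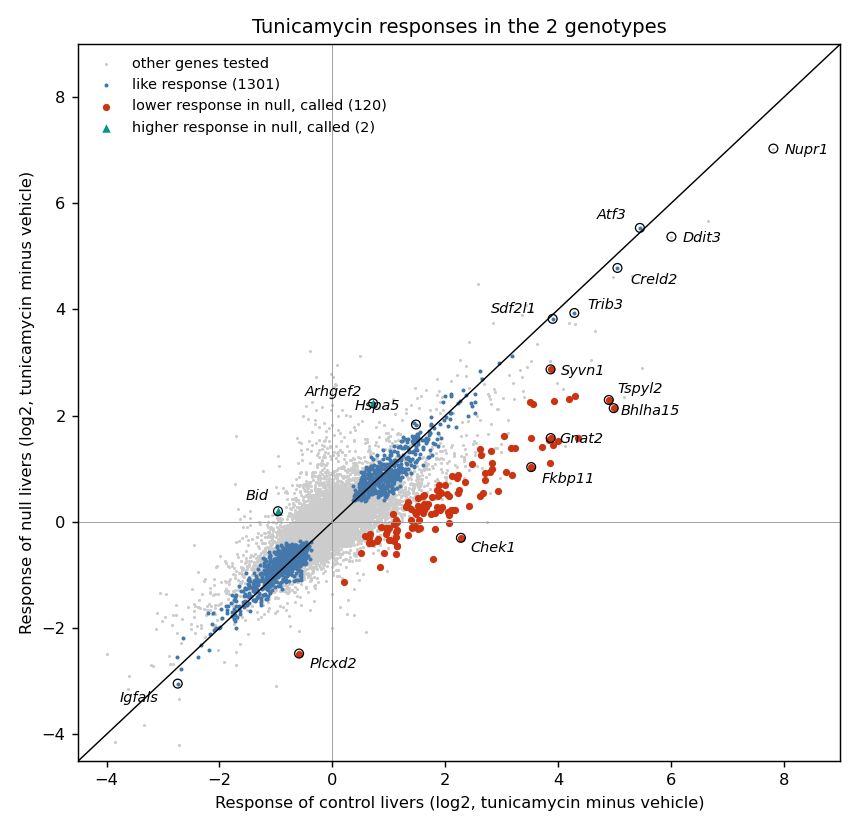
Response to tunicamycin in control livers (x axis) and null livers (y axis), both log2, for 14569 genes, with 3 arrays per group; the line marks equal responses, red points are the 120 genes with a lower response in null livers, green triangles the 2 with a higher one and blue points the 1301 like responses. The red points lie below the line, most of them at control responses above 0 with a median of 1.82, while Atf3, Creld2, Trib3 and Sdf2l1 lie close to the line.

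Promoters of genes from both classes are shown because the arms of the stress response are known to act through different DNA elements. The ER stress element (ERSE, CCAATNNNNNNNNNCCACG) is classically bound by ATF6 with NF-Y, the unfolded protein response element (UPRE, TGACGTGG) by XBP1s or ATF6, and the XBP1 core (GACGTG) lies inside the UPRE. Sequences are RefSeq windows of GRCm38.p6 from 250 bases before to 50 after a gene's start, 5′ to 3′ along the gene, with the matched letters in capitals. Sec24d (chr3:123267246-123267545, + strand) held a UPRE. Pgm3 (chr9:86571793-86572092, - strand) and the second window of Fkbp11 (chr15:98727578-98727877, - strand) held the core on the opposite strand. These 3 genes had lower responses in null livers.
Sec24d: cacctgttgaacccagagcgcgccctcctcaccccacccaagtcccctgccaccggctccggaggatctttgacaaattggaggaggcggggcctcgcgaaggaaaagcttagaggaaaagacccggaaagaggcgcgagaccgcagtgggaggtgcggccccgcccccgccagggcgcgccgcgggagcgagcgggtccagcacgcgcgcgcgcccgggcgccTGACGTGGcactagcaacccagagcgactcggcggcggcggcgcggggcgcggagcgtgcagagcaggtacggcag
Pgm3: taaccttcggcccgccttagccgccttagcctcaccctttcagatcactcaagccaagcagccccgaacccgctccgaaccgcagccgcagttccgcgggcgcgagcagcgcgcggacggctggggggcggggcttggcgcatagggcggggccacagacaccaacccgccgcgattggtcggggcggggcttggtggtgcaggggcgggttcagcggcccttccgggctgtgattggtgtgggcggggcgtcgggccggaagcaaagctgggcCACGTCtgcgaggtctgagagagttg
Fkbp11: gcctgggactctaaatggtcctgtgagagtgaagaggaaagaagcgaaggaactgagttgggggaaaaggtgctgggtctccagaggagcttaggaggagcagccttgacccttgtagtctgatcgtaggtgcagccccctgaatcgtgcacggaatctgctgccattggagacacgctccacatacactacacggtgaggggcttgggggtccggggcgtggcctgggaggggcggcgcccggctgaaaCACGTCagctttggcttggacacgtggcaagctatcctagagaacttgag
Hspa5 (chr2:34771840-34772139, + strand) held an ERSE and the core, and Creld2 (chr15:88819396-88819695, + strand) an ERSE on the opposite strand; both had like responses.
Hspa5: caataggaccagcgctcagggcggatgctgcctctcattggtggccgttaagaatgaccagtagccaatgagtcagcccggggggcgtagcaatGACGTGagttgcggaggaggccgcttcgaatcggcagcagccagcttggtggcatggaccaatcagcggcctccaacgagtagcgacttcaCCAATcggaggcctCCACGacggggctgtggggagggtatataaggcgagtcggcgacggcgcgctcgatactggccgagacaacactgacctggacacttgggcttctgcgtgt
Creld2: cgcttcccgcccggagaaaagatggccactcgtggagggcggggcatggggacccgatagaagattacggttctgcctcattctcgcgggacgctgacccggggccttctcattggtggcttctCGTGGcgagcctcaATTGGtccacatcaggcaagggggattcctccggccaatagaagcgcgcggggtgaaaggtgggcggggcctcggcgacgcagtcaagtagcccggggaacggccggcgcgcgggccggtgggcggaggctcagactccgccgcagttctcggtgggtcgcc
Sec24d and Hspa5 were chosen after the matches were seen, and the windows of Srprb, Atf3 and Trib3 held none of the 5 motifs searched.

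Over both strands of every window, a UPRE was found in 8 of the 99 genes with a lower response that have a window (8.08%), in 5 of 446 like rises (1.12%) and in 121 of 11658 genes tested (1.04%). The 8 genes were Ccdc149, Isg20, Lrrc59, Sec24d, Slc30a5, Stx5a, Txndc5 and Txndc11. The core was found in 32.3% of the genes with a lower response, 12.3% of like rises and 10.1% of all genes. An ERSE was in 1 of the 99 (1.01%, Syvn1), in 7 of 446 like rises (1.57%) and in 0.146% of all genes. ERSE-II (ATTGG and CCACG with 1 base between them) was in 0 of the 99, 0.673% of like rises and 0.0686% of all genes, and the ATF4-C/EBP element (TGATGNAAT) in 0 of the 99, 0.897% and 0.635%. Matches are a description of these windows, not sites of binding, and a missing match says only that the letters are not in the window.

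Among genes that bring new proteins into the ER, 6 of 25 had a called weaker response in null livers. Of 14 genes measured of the translocon and its partners, 10 rose in control and 3 in null livers (0 without null tunicamycin replicate 2). Of these 14 genes, 5 (35.7%, against 0.824% of all genes) had a lower response in null livers (6 without that array), with list medians of 0.90 in control and 0.21 in null livers. Srprb, the membrane subunit of the receptor for the signal recognition particle (SRP), read 8.10, 7.56 and 8.05 in control vehicle and 10.38, 11.08 and 10.65 in control tunicamycin livers. Null livers read 7.70, 7.82 and 7.81 with vehicle and 8.31, 9.34 and 8.50 with tunicamycin, so that the tunicamycin arrays of the genotypes did not overlap. Its responses were 2.80 and 0.94 ± 0.26, which differed by -1.86 ± 0.37 (adjusted p = 0.0439), a call kept in 9 of 25 alternative settings, 12 of which leave out 1 array.

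Sec61a1, the pore subunit of the translocon, read 12.05, 12.18 and 12.01 in control and 10.67, 11.06 and 10.87 in null tunicamycin livers, from vehicle means of 10.57 ± 0.11 and 10.41 ± 0.12 (SD, n = 3). The tunicamycin arrays again did not overlap, and the difference of the responses was -1.05 ± 0.20 (adjusted p = 0.0343), called in 11 of the 25 settings. Ssr1 and Ssr3, of the translocon-associated TRAP complex, had differences of -1.31 ± 0.26 and -0.96 ± 0.18. Tram1, which assists chains through the pore, had -0.83 ± 0.16 (adjusted p = 0.0425), and -0.52 when its probe sets were averaged (adjusted p = 0.575). It was called in 7 of 25 settings and lost without null tunicamycin replicate 2 (adjusted p = 0.0555). Among 11 genes of SRP and signal peptidase, which cuts the signal sequence, 8 rose in control and 3 in null livers. All 11 differences were negative with a median of -0.64, and Srp19, a protein of SRP, was called (-1.01 ± 0.18, adjusted p = 0.026), with Srp9 and Srp68 as well without null tunicamycin replicate 2. Sec11a, of signal peptidase, had a like response in both fits, and Tram2 and Srp72 with all arrays only.

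Transport from the ER to the Golgi showed the same order of medians. Of 32 genes of the COPII and COPI coats and cargo receptors, 24 rose in control and 5 in null livers; the median response was 0.84 and 0.04, and 30 of 32 differences were negative. Sec24d, the COPII subunit whose promoter is shown above, read 12.12, 12.23 and 11.96 in control tunicamycin livers and 10.61, 10.88 and 10.58 in null ones. The vehicle arrays lay between 10.01 and 10.46 in both genotypes, and the null tunicamycin arrays stood just above them. Its responses of 1.76 and 0.47 ± 0.15 differed by -1.29 ± 0.21 (adjusted p = 0.0175), called in 19 of 25 settings. Also called were Tmed3, a p24 cargo receptor (-1.48 ± 0.29), Surf4, a cargo receptor (-1.13 ± 0.20), Sec16a, which organises ER exit sites (-1.11 ± 0.22), and Cope, of the COPI coat. In all, 5 of 32 genes were called (15.6%, against 0.824% of all genes). The list had 9 called genes, and 3 rises in null livers, without null tunicamycin replicate 2.

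SNARE proteins that fuse ER-derived vesicles with the Golgi were on no list and were picked out after their values were seen. Stx5a, the Golgi syntaxin, read 12.65, 12.76 and 12.60 in control and 11.17, 11.46 and 11.18 in null tunicamycin livers. Both sets lay above the vehicle arrays, whose means were 10.45 ± 0.07 and 10.39 ± 0.03. Its responses were 2.22 and 0.88 ± 0.13 and differed by -1.33 ± 0.18 (adjusted p = 0.00798). Its partners Sec22b (-1.38 ± 0.22), Bet1 (-1.51 ± 0.26) and Gosr2 (-1.10 ± 0.20) were called as well. Slc30a5 and Slc30a7, zinc transporters of the early secretory pathway, had differences of -1.31 ± 0.24 and -1.60 ± 0.31.

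The supply of sugar nucleotides and dolichol for N-glycosylation, the process that tunicamycin blocks, was part of the weaker response. Among 39 genes of oligosaccharide assembly, transfer and trimming, 19 rose in control and 9 in null livers, with medians of 0.65 and 0.10, and 34 differences were negative. Of the 39 genes, 5 (12.8%, against 0.824% of all genes) were called. They were Pgm3 and Gfpt1, which make UDP-N-acetylglucosamine, Gmppa and Gmppb, which make and regulate GDP-mannose, and Dolpp1, which recycles dolichol. Gmppb read 7.33, 6.89 and 6.70 in control vehicle and 10.65, 10.97 and 10.80 in control tunicamycin livers. The null values were 6.74, 7.05 and 6.85, and 7.96, 8.69 and 8.62. Every tunicamycin array lay above every vehicle array, and the null arrays below the control arrays: the responses were 3.84 and 1.55 ± 0.22 and the difference -2.29 ± 0.31 (adjusted p = 0.00798).

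Pgm3, phosphoacetylglucosamine mutase, read 9.81, 10.10 and 9.37 in control tunicamycin livers. Its null tunicamycin arrays, at 7.37, 7.97 and 7.23, lay within or below the vehicle arrays of both genotypes, which ran from 7.47 to 8.80. The control response was 1.78 and the null response -0.70 ± 0.34, which was not called, and the difference was -2.48 ± 0.48 (adjusted p = 0.0412), called in 13 of 25 settings. Gmppa (-1.68 ± 0.22) and Dolpp1 (-1.60 ± 0.25) rose in control livers by 2.22 and 1.75. Stt3b, a catalytic subunit of the oligosaccharyltransferase, and Pmm1, a phosphomannomutase, had like responses.

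The ER chaperones held members with like responses, members with weaker responses and others that met neither rule. Of 22 genes, 19 rose in control and 16 in null livers (14 without null tunicamycin replicate 2), with medians of 1.46 and 1.04. A like response was seen in 10 (45.5%, against 8.93% of all genes), and in 8 without that array. The 10 were among 15 genes of the list called the same way in both genotypes. Over all genes, 68.9% of those so called were like. A lower response was seen in 3 (13.6%, against 0.824% of all genes), and the median difference was -0.14. Hspa5, the lumenal Hsp70 known as BiP, read 13.59, 13.65 and 13.65 in control and 13.70, 13.76 and 13.64 in null tunicamycin livers, against 12.33, 12.04 and 12.07, and 11.57, 12.37 and 11.66, with vehicle. The tunicamycin arrays of the genotypes overlapped and lay above all vehicle arrays. Its responses were 1.48 and 1.83 ± 0.19, and the 95% interval of their difference ran from -0.24 to 0.94. By mean level 19 genes lay above Hspa5 in control and 13 in null tunicamycin livers, with a highest control mean of 13.92, so values above 13 lie near the top of the scale. Whether differences are compressed there, for Hspa5 or other genes at that level, was not tested.

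Creld2, an ER protein with disulfide isomerase activity, rose 33.1-fold in control livers, from 9.22, 8.45 and 8.10 to 13.66, 13.64 and 13.61. The null rise was 27.5-fold, from 8.24, 8.69 and 8.41 to 13.24, 13.21 and 13.23. The responses of 5.05 and 4.78 ± 0.23 were like (difference -0.27, interval -0.98 to 0.45), although the rule was not met without null tunicamycin replicate 2 and the 3 null tunicamycin arrays lay below the 3 control ones. Sdf2l1, a partner of ER J-domain proteins, rose by 3.90 and 3.82 (interval -0.62 to 0.46). Dnajb11, a cochaperone of BiP, rose by 2.52 and 2.41, and Hsp90b1, the ER Hsp90, by 0.79 and 0.91. Hyou1, a nucleotide exchange factor for BiP, rose by 1.84 and 2.13 ± 0.28, with an interval (-0.56 to 1.14) too wide for a like response.

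The 3 chaperones with a lower response in null livers were Dnajc10, Fkbp14 and Fkbp11. Dnajc10, a reductase with a J domain, read 11.34, 11.55 and 11.08 in control and 9.61, 10.03 and 9.90 in null tunicamycin livers, where the vehicle arrays of both genotypes lay between 9.24 and 9.89. Its responses were 1.90 and 0.23 ± 0.19 and differed by -1.67 ± 0.27 (adjusted p = 0.0179). Fkbp14, an ER prolyl isomerase, rose by 1.13 in control livers and fell by 0.60 in null ones (difference -1.73 ± 0.26, adjusted p = 0.0137, and -0.90 with adjusted p = 0.0699 when its probe sets were averaged). Fkbp11, also a prolyl isomerase, read 11.59, 11.97 and 11.29 against 8.50, 8.40 and 9.05 in the tunicamycin arrays, and its difference was -2.49 ± 0.46 (adjusted p = 0.0297). That value depends on the probe set: when _x_at and _s_at probe sets, which can match more than 1 transcript, were left out, the difference was -0.10 (adjusted p = 0.996). Hspa13, an Hsp70-like protein of microsomes on no list, had -1.65 ± 0.29, and -1.01 with averaged probe sets (adjusted p = 0.47).

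Among 18 disulfide isomerases and ER oxidases, 3 (16.7%, against 0.824% of all genes) had a lower response. They were Txndc5 (-1.36 ± 0.28), Txndc11 (-1.11 ± 0.20) and Pdia5 (-1.11 ± 0.20), each of the thioredoxin-like family. Txndc5 was called in 6 of 25 settings and lost without null tunicamycin replicate 2 (adjusted p = 0.0804), which leaves 2 calls. Pdia5 read a response of 0.71 in control and -0.40 ± 0.14 in null livers. P4hb, the main disulfide isomerase, and Ero1b, an oxidase, were among the 5 with like responses (27.8%), and the list medians were 0.94 and 0.44. Pdia4 rose by 3.62 and 3.35 ± 0.25, with an interval from -1.06 to 0.51.

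ER-associated degradation (ERAD) returns misfolded proteins to the cytosol. Of its 24 genes, 21 rose in control and 11 in null livers, with medians of 1.09 and 0.52. All 24 differences were negative, and 2 (8.33%, against 0.824% of all genes) were called. Both were among the 21 control rises, where 118 of the 1692 control rises over all genes were called lower. Syvn1, the HRD1 ubiquitin ligase, rose in both genotypes, to a mean of 13.07 ± 0.06 (SD, n = 3) in control livers and to 12.31, 12.05 and 12.24 in null livers from vehicle means of 9.21 ± 0.07 and 9.33 ± 0.18. The null tunicamycin arrays lay below the control ones and far above vehicle, with responses of 3.86 and 2.87 ± 0.13 (difference -0.99 ± 0.19, adjusted p = 0.0371). Without null tunicamycin replicate 2 its adjusted p was 0.0581, and it was called in 7 of 25 settings. Edem2, which starts mannose trimming of misfolded glycoproteins, rose by 1.34 in control livers and had a null response of -0.25 ± 0.18 (difference -1.58 ± 0.25, adjusted p = 0.017). Averaged over its probe sets the difference was -0.61 (adjusted p = 0.302).

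Sel1l, the partner of HRD1, had a like response, 2.53 and 2.05 ± 0.13, as did Herpud1, 1.35 and 1.32 ± 0.20. Edem1, with 1.77 and 1.26 ± 0.15, met the like rule with all arrays and not without null tunicamycin replicate 2. Derl3, a Derlin of the ERAD channel, rose by 6.66 and 5.66 ± 0.31, and the interval of the difference, -1.96 to -0.04, was not like (adjusted p = 0.569). Null vehicle replicate 1 read 8.24 where the other 5 vehicle arrays read 6.25 to 6.87.

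Taking these 7 ER lists together, 112 of 160 genes rose in control and 56 in null livers (46 without null tunicamycin replicate 2). Their median difference was -0.54, and 86.2% of the differences were negative against 45.7% over all genes. Of the 160 genes, 24 (15%, against 0.824% of all genes) were called lower. The 24 make up 20% of the 120 genes with a lower response, and genes of these lists 1.1% of those tested. A separate list of 38 genes reported as XBP1 targets or XBP1-dependent, many of them also on the ER lists, had medians of 1.33 and 0.44. In it, 34 genes rose in control and 16 in null livers. Called lower were 9 (23.7%, against 0.824% of all genes), and 3 (Dnajc3, Edem1 and Dnajb11) had like responses. Dnajb9, a cochaperone often used to read XBP1 activity, rose by 1.91 and 1.49 ± 0.26, and its difference of -0.42 ± 0.36 was not called (adjusted p = 0.87), nor was that of -0.75 without null tunicamycin replicate 2 (adjusted p = 0.358).

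**Figure D2:**
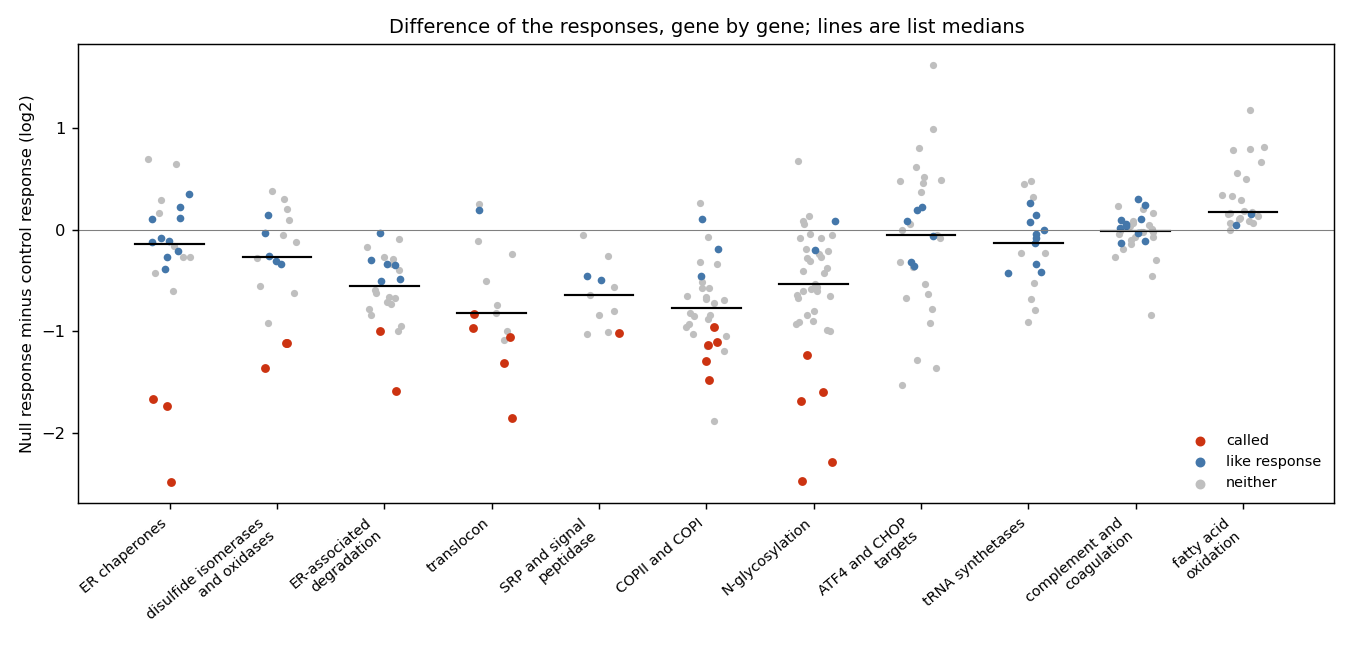
Null response minus control response (y axis, log2) for each measured gene of 11 lists; red points are called, blue points are like responses, grey points neither, and lines are list medians. The medians lie at -0.82 for the translocon and -0.77 for COPII and COPI, at -0.14 for ER chaperones and at -0.05 for ATF4 and CHOP targets.

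Among 20 sensors and factors of the stress arms, limma called 0 differences, 4 had an unadjusted p under 0.05, and the median difference was -0.02. Ern1, which encodes Ire1α, read 10.87, 10.50 and 10.31 in control vehicle and 10.76, 10.23 and 10.28 in null vehicle livers. With tunicamycin it read 11.71, 11.40 and 11.66, and 12.13, 11.18 and 11.76. The genotypes overlapped in both conditions, and the responses of 1.03 and 1.27 ± 0.24 were like with all arrays. Without null tunicamycin replicate 2 the difference went from 0.24 to 0.49 and the like rule was not met. Because the deleted part of the gene is not given, this probe set may lie outside it and does not check the genotype labels. Its 4 probe sets did not all have the same sign, and 3 shared that of the one used.

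Xbp1 RNA, whose splice forms were not separated here, rose by 0.55 in control and by 1.21 ± 0.14 in null livers. Its tunicamycin arrays read 12.49, 12.50 and 12.52 in control and 13.13, 12.97 and 13.09 in null livers, without overlap, while the difference of 0.66 ± 0.19 was not called (adjusted p = 0.212). This is an _s_at probe set, and with such probe sets left out the difference was 1.72, also not called. Under the other settings it was not called either, with a lowest adjusted p of 0.0542. Atf6 had a like response, 1.87 and 1.44 ± 0.16. Eif2ak3, which encodes PERK, rose by 2.03 and 1.12 ± 0.33 (adjusted p of the difference 0.675, and 0.0633 without null tunicamycin replicate 2). Atf6b, a relative of ATF6, and Creb3, a further membrane-bound factor, had differences of -0.98 ± 0.22 and -0.82 ± 0.18 that narrowly missed the threshold (adjusted p = 0.0704 and 0.0664).

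The arm read by ATF4 and CHOP had the same median response, 1.57, in both genotypes with all arrays. Without null tunicamycin replicate 2 the null median was 1.41. Of 29 genes, 19 rose in control and 22 in null livers. By limma 0 differences were called and 5 had an unadjusted p under 0.05, with a smallest adjusted p of 0.0741 for Ero1a, the ER oxidase. The median difference was -0.05, and 15 of the 29 were negative, with single genes from -1.53 to 1.63. A like response was seen in 6 of the 29 (20.7%, against 8.93% of all genes). Of the 19 genes called the same way in both genotypes, these 6 are a smaller share than the 68.9% found over all genes so called. The others of the 19 remain undecided. Atf3, an ATF-family factor induced by ATF4, read 6.46, 6.07 and 6.24 in control vehicle and a mean of 11.70 ± 0.26 (SD, n = 3) in control tunicamycin livers. Null livers read 6.71, 6.03 and 6.11, and 12.07, 11.50 and 11.88. The genotypes overlapped in each condition, the responses were 5.45 and 5.54 ± 0.22 (43.6-fold and 46.4-fold), and the interval of the difference was -0.59 to 0.77.

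Atf4 itself rose by 2.11 and 2.05 ± 0.14 (interval -0.50 to 0.38), a like response. Its tunicamycin arrays did not overlap, at 12.41, 12.43 and 12.43 in control livers and between 11.94 and 12.27 in null livers. Trib3, a pseudokinase, rose by 4.29 and 3.93 ± 0.21, and Ppp1r15a, the GADD34 phosphatase subunit, by 2.62 and 2.85 ± 0.19, both like. Ddit3, which encodes CHOP, rose 64.2-fold and 41.4-fold. Its tunicamycin arrays overlapped between genotypes, at 13.41, 13.32 and 13.37 against 13.36, 13.28 and 13.37, and the interval of the difference, -1.37 to 0.10, did not meet the like rule. Nupr1, a stress-induced chromatin protein, rose by 7.81 and 7.03 ± 0.32. Asns, asparagine synthetase, rose by 3.44 and 2.91 ± 0.50, and Fgf21, a hormone of the stressed liver, by 4.98 and 4.61 ± 0.41; these 3 met neither rule. The null response of Fgf21 was 5.18 without null tunicamycin replicate 2, so that its difference went from -0.36 to 0.20.

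Individual ATF4 targets had wider differences in either direction that were not called. Chac1, a glutathione-degrading enzyme, had responses of 3.98 and 2.61 ± 0.40 (adjusted p = 0.504), and Sesn2, a stress-induced regulator of growth signalling, 1.57 and 2.37 ± 0.21 (adjusted p = 0.414). Cytosolic aminoacyl-tRNA synthetases, which ATF4 is known to raise, included 10 like responses of 19 (52.6%) and 0 called differences by limma (3 with an unadjusted p under 0.05), with a smallest adjusted p of 0.0809 for Qars. Their median responses were 1.04 and 0.90. Gars rose by 1.46 and 1.54 ± 0.13 and Iars by 1.66 and 1.57 ± 0.14, while Wars had 2.91 and 2.12 ± 0.17 (adjusted p = 0.261). Gadd45a, a growth arrest gene, had 2.57 and 4.48 ± 0.44, a difference of 1.91 ± 0.62 that was not called (adjusted p = 0.293).

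**Figure D3:**
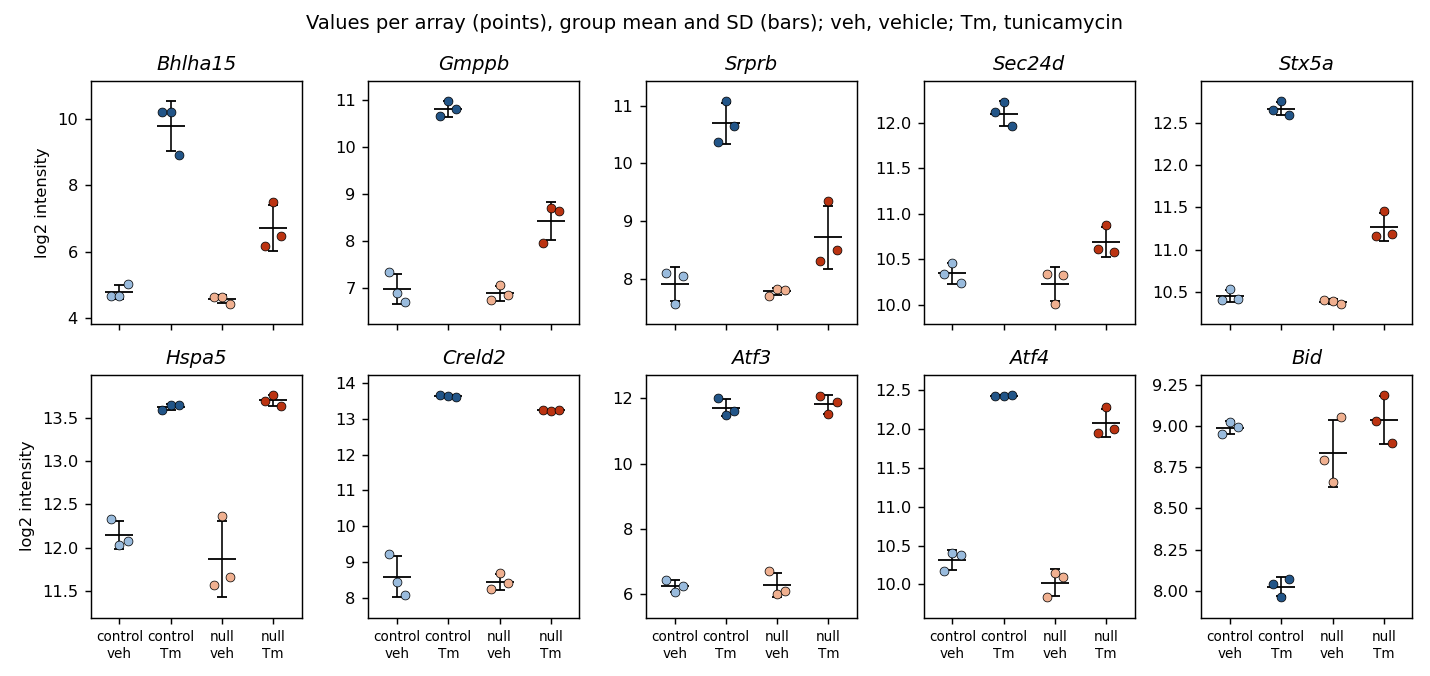
Log2 intensity on each array (points) with the group mean and SD (bars, n = 3) for 10 genes in 4 groups; each panel has its own y axis, which does not start at 0. The null tunicamycin arrays of Bhlha15, Gmppb, Srprb, Sec24d and Stx5a lie below the control tunicamycin arrays. Those of Creld2 and Atf4, which had like responses, also lie below them, by less, while those of Hspa5 and Atf3 overlap with them. Bid is lower with tunicamycin in control livers (mean 8.03) and not in null livers (mean 9.04).

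Of the 120 genes with a lower response, 94 were on none of the 35 function lists. The most negative difference was that of Bhlha15, which encodes MIST1, a factor of secretory cells known to depend on XBP1. It read 4.67, 4.66 and 5.03 in control vehicle and 10.21, 10.20 and 8.90 in control tunicamycin livers. The null arrays read 4.65, 4.64 and 4.43, and 6.18, 7.49 and 6.47, so that it rose in both genotypes without overlap between them. The responses were 4.98 (31.6-fold) and 2.14 ± 0.37 (4.41-fold), and differed by -2.84 ± 0.52 (adjusted p = 0.0286), called in 14 of 25 settings.

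Several genes outside the secretory pathway had differences as large with smaller errors. Tspyl2, a nucleosome assembly protein of the testis-specific Y-encoded-like family, rose from 5.57, 5.67 and 5.63 to 10.27, 10.79 and 10.50 in control livers. Null livers went from 5.36, 5.62 and 5.54 to 7.73, 7.96 and 7.71 (difference -2.60 ± 0.22, adjusted p = 0.00061). Gnat2, the α subunit of cone transducin, rose to 8.96, 9.26 and 9.18 in control and to 6.63, 6.50 and 6.65 in null livers from vehicle means of 5.27 ± 0.20 and 5.02 ± 0.07 (difference -2.29 ± 0.20, adjusted p = 0.00061). In both genes every null tunicamycin array lay between the vehicle arrays and the control tunicamycin arrays. Zfp9, a zinc finger gene, had -2.77 ± 0.28, and Nde1, a centrosomal partner of dynein, -2.74 ± 0.30. These 4 genes, with Gmppb, Gmppa, Ung, Plcxd2 and the unnamed transcript 6430548M08Rik (-2.29 ± 0.30), were the named genes called under each of 25 alternative settings.

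Chek1 and Ung, which act in the DNA damage checkpoint and in DNA repair, were among the most negative differences. Chek1, the CHK1 kinase, read 7.62, 7.13 and 6.90 in control tunicamycin livers and 5.40, 5.61 and 5.23 in null ones. Vehicle arrays ran from 4.64 to 5.14 in control and from 5.14 to 6.26 in null livers, and its null response of -0.30 ± 0.27 was not called. The difference was -2.58 ± 0.39 (adjusted p = 0.0137), or -1.49 with a pseudocount of 64, where it was called too. Ung, uracil-DNA glycosylase, had responses of 3.08 and 0.94 ± 0.20. Rpa2, of the single-strand binding protein RPA, and Alkbh2, which repairs alkylated DNA, had differences of -1.31 ± 0.26 and -1.25 ± 0.25; both were named after their values were seen. Alkbh2 was called in 8 of 25 settings and lost without null tunicamycin replicate 2 (adjusted p = 0.0613).

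Transporters and nuclear factors filled the rest of the largest differences. Slc26a2, a sulfate transporter, had -2.30 ± 0.42, and Slc17a9, the vesicular nucleotide transporter, -2.46 ± 0.33, or -1.19 with a pseudocount of 1 (adjusted p = 0.14). Mxd1, a partner of MAX, had responses of 2.94 and 0.59 ± 0.26, and Nr4a2, an orphan nuclear receptor, 2.07 and 0.12 ± 0.23. The latter's difference was -1.95 ± 0.33, or -1.04 with a pseudocount of 64, where it was called too. Ccdc149, whose promoter holds a UPRE, rose by 4.0 and 1.52 ± 0.26. Cflar, an inhibitor of caspase 8 activation, rose by 1.14 in control livers with a null response of 0.00 ± 0.17, a difference of -1.15 ± 0.24 that was called at an adjusted p of 0.0498 and lost without null tunicamycin replicate 2 (0.0809).

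Of the 2 genes with a higher response in null livers, Arhgef2 was on no function list and Bid on that of BCL2 family and cell death genes. Arhgef2, a microtubule-bound activator of RHOA, read 6.93, 6.98 and 6.69 in control and 7.96, 8.20 and 8.61 in null tunicamycin livers, from vehicle means of 6.14 ± 0.16 and 6.03 ± 0.05. Its responses were 0.72 and 2.23 ± 0.17 (difference 1.51 ± 0.24, adjusted p = 0.017). The difference was 0.60 when its probe sets were averaged (adjusted p = 0.376), 0.64 on restriction to probe sets that are neither _x_at nor _s_at, and 0.71 with a pseudocount of 1. Bid, the BH3 protein that links death receptors to mitochondria, fell in control livers from 8.95, 9.02 and 8.99 to 8.04, 7.96 and 8.08. Null livers read 8.79, 8.66 and 9.06 with vehicle and 9.03, 9.19 and 8.89 with tunicamycin, which overlapped (response 0.20 ± 0.14, difference 1.17 ± 0.20, adjusted p = 0.0201). With averaged probe sets the difference was 0.69 (adjusted p = 0.312).

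Plcxd2, a gene of the phospholipase C X-domain family, differed by a deeper fall in null livers. It read 11.07, 10.75 and 10.72 in control and 9.62, 9.13 and 8.86 in null tunicamycin livers, and 11.34 to 11.90 in the vehicle arrays. The responses were -0.59 and -2.48 ± 0.20, and the difference -1.89 ± 0.28 (adjusted p = 0.0137).

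Like rises beyond the chaperone and ATF4 genes included Cyb5r1, a cytochrome b5 reductase (3.19 and 3.13 ± 0.15), Fancb, of the Fanconi anaemia core complex (2.95 and 3.00 ± 0.23), and Smox, spermine oxidase (2.31 and 2.48 ± 0.15). The like fall with the largest mean over both genotypes was that of Igfals, the acid-labile subunit that carries insulin-like growth factors in plasma. It fell from 10.70, 10.02 and 10.45 to 7.89, 7.39 and 7.67 in control livers, and from 10.13, 10.25 and 10.15 to 7.57, 6.97 and 6.86 in null livers. The genotypes overlapped with tunicamycin, and the responses were -2.74 and -3.05 ± 0.22 (interval -0.99 to 0.37). Fn3k, fructosamine 3-kinase, had -2.75 and -2.55 ± 0.21.

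Stress programs outside the ER gave few calls. Of 23 immediate early genes, which answer growth and stress signals, 6 rose and 3 fell in control livers and 9 rose in null livers. Their medians were 0.14 and 0.63, and the median difference was 0.45 (0.31 to 0.61 over the alternative settings), with 18 of 23 positive, although the 1 call was that of Nr4a2 in the other direction. Myc, the growth factor-induced transcription factor, rose by 2.42 and 3.38 ± 0.28, and Klf6, a zinc finger factor, had 0.11 and 1.14 ± 0.27; neither difference was called (adjusted p = 0.489 and 0.388). Of 19 genes of p53 and growth arrest, 6 had like responses (31.6%), among them Mdm2, the ligase of p53, with 0.57 and 0.58 ± 0.17, and Btg2, an antiproliferative gene, with 1.75 and 1.98 ± 0.23. Cdkn1a, the cyclin-dependent kinase inhibitor p21, rose by 4.65 and 3.60 ± 0.38, with an interval of the difference from -2.21 to 0.12. In the proteasome list 4 of 37 genes, and in the autophagy list 6 of 32, had like responses (10.8% and 18.8%, against 8.93% of all genes). In these lists 4 and 7 genes were called the same way in both genotypes, and the median differences were -0.06 and -0.05. Sqstm1, the autophagy receptor p62, rose by 1.21 and 1.52 ± 0.21.

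Secreted plasma proteins and liver metabolism held no called difference with all arrays. Of 33 complement and coagulation genes, 12 fell in each genotype, the median responses were -0.38 and -0.42, and all 10 genes called in both genotypes met the like rule (30.3% of the list, against 8.93% of all genes). Leaving out null tunicamycin replicate 2 left 7 falls in null livers and 7 like responses. The 10 include Masp2, a lectin pathway protease, and the coagulation factors F7 and F10. In lists of fatty acid oxidation, lipid synthesis, lipoproteins, cholesterol, cytochrome P450, bile acids, glucose and the urea cycle, 0 of 196 genes were called by limma with all 12 arrays, 14 had an unadjusted p under 0.05, and the list medians of the difference lay between 0.02 and 0.17. Like responses made up from 4.76% to 19% of these lists, on either side of the 8.93% over all genes, and most of their genes met neither rule. Without null tunicamycin replicate 2 the median difference went from 0.14 to 0.36 for cholesterol, from 0.08 to 0.19 for lipid synthesis, from 0.17 to 0.26 for fatty acid oxidation and from 0.04 to 0.10 for lipoproteins. Examples of a positive difference are Mvk, mevalonate kinase, with responses of -1.46 and -0.67 ± 0.19, and Gpam, of triglyceride synthesis, with -1.32 and -0.64 ± 0.15. Ehhadh, a peroxisomal enzyme, had -0.93 and -0.27 ± 0.20. None of them was called (adjusted p of the differences 0.321, 0.236 and 0.512). A negative difference was seen in 4 of the 14 genes with an unadjusted p under 0.05. They include Mvd, of cholesterol synthesis (-1.05), and Cyp8b1, of bile acid synthesis (-1.31).

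Fatty acid oxidation and ketogenesis had 11 falls in control and 4 in null livers among 23 genes, and 0 of the 23 differences were negative, with a median of 0.17. Respiratory chain subunits had 12 falls in control and 2 in null livers among 45, and a median difference of 0.14, or 0.08 with arrays centred in place of quantile normalization. Hepatocyte transcription factors had 6 and 2 falls among 19 and a median difference of 0.27. Nr1i3, the xenobiotic receptor CAR, had responses of -2.83 and -1.75 ± 0.27 (adjusted p = 0.376), and Hlf, a circadian output factor, -2.10 and -1.08 ± 0.20 (adjusted p = 0.178). Over all genes tested the falls were also fewer in null livers, 9.19% against 13.3% in control livers. Such counts depend on the power in each genotype, and no difference of these lists was called. Among 17 transcripts reported as direct substrates of the IRE1 RNase, 5 fell in control and 1 in null livers, with a median difference of 0.15. Limma called 0 of the 17 differences, and 3 had an unadjusted p under 0.05, 1 of them with a negative difference. That was Rpn1, also on the N-glycosylation list, with a difference of -0.67 and the smallest adjusted p of the list, 0.16. Ces1g, a carboxylesterase of that list, went the other way, with responses of -1.99 and -0.65 ± 0.28 (adjusted p of the difference 0.213).

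**Figure D4:**
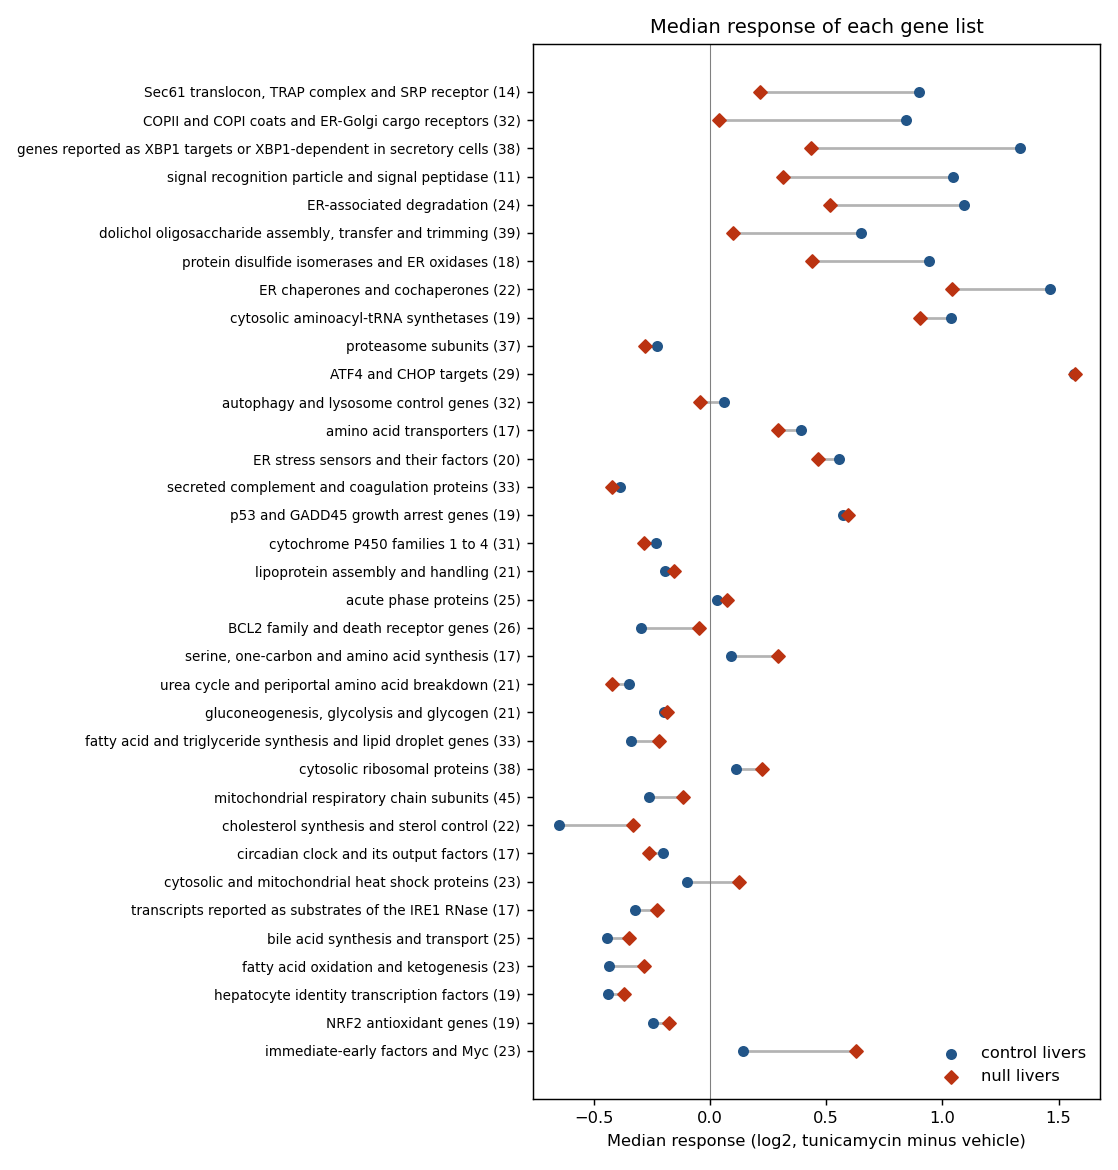
Median response to tunicamycin (x axis, log2) of the measured genes of 35 function lists (number of genes in parentheses), in control livers (blue circles) and null livers (red diamonds), ordered by the median difference of the responses. At the top, where the median difference is most negative, the null median is lower than the control median, with 0.21 against 0.90 for the translocon and 0.04 against 0.84 for the coats, while the ATF4 and CHOP list has 1.57 in both genotypes.

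Markers of other cell types were followed through the interaction. Without null tunicamycin replicate 2 the median difference of 21 kidney markers went from 1.47 to 0.05 and that of 5 bile duct markers from 1.40 to 0.55. The 2 adipocyte markers measured, Fabp4 and Retn, had a median of 0.79 with all arrays and 0.52 without that array, 12 stellate cell markers 0.38 and 0.41, and 4 neutrophil markers 0.26 and 0.38. With all arrays the medians were 0.18 for 9 lymphocyte, 0.17 for 4 pancreas, 0.01 for 12 endothelial, -0.03 for 2 erythroid and -0.10 for 14 Kupffer cell markers, and over all 11 marker lists limma called 0 genes, with 4 at an unadjusted p under 0.05. In tissue RNA, fewer cells of a type and less RNA per cell cannot be told apart. Umod had a difference of 3.62 ± 2.06 with all arrays and 1.17 ± 0.50 without that array, and Kap 3.01 ± 1.99 and 0.61 ± 0.33.

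Leaving that array out of the fit gave 124 genes with a lower response (0.851%) and 5 with a higher one (0.0343%), and 1234 like responses (8.47%), 984 of them shared with the 1301. Of the 122 genes called with all arrays, 104 were called again with the same sign and 18 were not, and 25 others were called. All 120 lower responses stayed negative, with a median of -1.50, and ER list genes among the lower responses went from 24 to 29. The largest of the 18 lost were Zfp975, Cilk1, Dhx57, Nmral1, Zfpl1 and Camta1, whose differences of -1.38 to -1.78 moved to between -1.25 and -1.66 with adjusted p from 0.0556 to 0.0668. Genes gained include Nucb2, the secreted protein nucleobindin 2, whose null tunicamycin arrays read 7.93, 10.22 and 8.58 and whose difference went from -2.59 ± 0.64 to -3.24. Other genes gained were Arfgap3 (-2.44), Sec23b (-1.50), Sec61b (-1.18), Srp68 (-1.18) and Serp1 (-0.87), of coat, SRP or translocon function, and Hal, histidine ammonia-lyase, with a smaller fall in null livers (0.88 ± 0.31 before, 1.16 after, adjusted p = 0.0391).

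**Figure D5:**
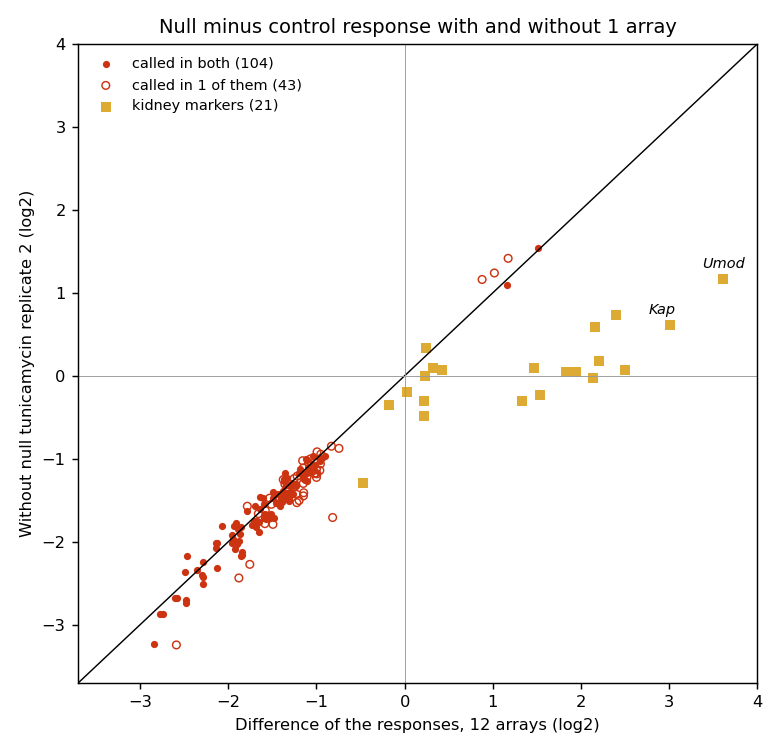
Null response minus control response (log2) with all 12 arrays (x axis) and without null tunicamycin replicate 2 (y axis) for genes called in either fit and 21 kidney markers; the line marks equal values. The called genes lie along the line, while Umod moves from 3.62 to 1.17 and Kap from 3.01 to 0.61.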

How the data were processed

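Total RNA of 12 mouse livers was labelled from 6 µg by the Affymetrix protocol, per the labels. Each probe set was deposited as a linear intensity; the authors' way of summarising probes and scaling arrays is not stated in the labels used here. Of 45101 probe sets, 64 controls, 932 with several gene symbols and 9160 with none were left out. With limma 3.58.1 in R 4.3.3 (and data.table, version 1.17.8), log2(intensity + 16) was quantile normalized, the 30% dimmest probe sets were dropped and the brightest probe set per gene was kept. Group means were fitted across the 12 arrays with lmFit and eBayes, which leaves 8 residual degrees of freedom. An array left out was dropped from the fit and kept in the normalization. The steps were tested on simulated data with known differences. The comparison, members and the 35 function and 11 marker lists were chosen with earlier results of these data known. Named were 23 anchor genes, the 15 most negative and all positive called differences, up to 4 called (or 2 uncalled) genes per list, the 10 largest like rises and falls, and up to 6 calls lost without 1 array. Not all are discussed. Others (SNAREs, zinc transporters, Plcxd2, Rpa2, Alkbh2, genes gained without 1 array and some chaperones and synthetases) were named after their values were seen. Alternatives were other pseudocounts, filters, normalizations, probe set rules, fits, covariates and bounds. Promoters came from RefSeq, and plots were made in Python 3.11.15 with matplotlib 3.10.9. The number of arrays limits precision.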

Additional observations from a re-analysis of the deposited data

Results flagged for a closer look

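The responses of the named genes below differed between the genotypes by the interaction test of limma at a Benjamini-Hochberg adjusted p under 0.05, which is why they are listed. The value beside each is the null response minus the control response (log2). Entry into the ER gave Srprb (-1.86), Ssr1 (-1.31), Sec61a1 (-1.05), Srp19 (-1.01), Ssr3 (-0.964) and Tram1 (-0.83). Genes of transport to the Golgi, with zinc transporters of that route, gave Bet1 (-1.51), Tmed3 (-1.48), Sec22b (-1.38), Stx5a (-1.33), Sec24d (-1.29), Surf4 (-1.13), Sec16a (-1.11), Gosr2 (-1.1), Slc30a7 (-1.6) and Slc30a5 (-1.31). For glycosylation the values were Pgm3 (-2.48), Gmppb (-2.29), Gmppa (-1.68) and Dolpp1 (-1.6). Protein folding and degradation gave Fkbp11 (-2.49), Fkbp14 (-1.73), Dnajc10 (-1.67), Hspa13 (-1.65), Edem2 (-1.58), Txndc5 (-1.36), Txndc11 (-1.11), Pdia5 (-1.11) and Syvn1 (-0.993). In transcription, signalling, DNA repair and death they were Bhlha15 (-2.84), Zfp9 (-2.77), Tspyl2 (-2.6), Chek1 (-2.58), Mxd1 (-2.35), Ung (-2.14), Nr4a2 (-1.95), Zfp975 (-1.78), Camta1 (-1.38), Cilk1 (-1.66), Rpa2 (-1.31), Alkbh2 (-1.25) and Cflar (-1.15). Genes of other functions gave Nde1 (-2.74), Ccdc149 (-2.48), Slc17a9 (-2.46), Slc26a2 (-2.3), Gnat2 (-2.29), 6430548M08Rik (-2.29), Plcxd2 (-1.89), Dhx57 (-1.58), Nmral1 (-1.53) and Zfpl1 (-1.51). A higher response in null livers was found for Arhgef2 (1.51) and Bid (1.17).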

How the results depend on the processing

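All of the 122 genes called in the interaction kept their sign under each of 25 alternative settings in which they were tested. Single probe sets varied more: of 78 called genes with more than 1 probe set, 68 had the same sign in all of them. With probe sets averaged, 85 of the 122 were called again. The settings reuse arrays that selected these genes, so a kept sign is no separate support. The number of calls changed more than their direction. It was 70 with a pseudocount of 1, 186 with a pseudocount of 64, 225 with array quality weights and 205 at an adjusted p under 0.10. Leaving out 1 array gave from 23 to 129 calls: 33, 23 and 110 without control tunicamycin replicates 1, 2 and 3, then 43, 129 and 73 for the null tunicamycin, 67, 64 and 40 for the control vehicle and 35, 91 and 45 for the null vehicle replicates. Like responses numbered 357 with a bound of 1.5-fold, 678 with the actin ratio as a covariate, and from 786 (without null tunicamycin replicate 3) to 1234 with 1 array left out. With the replicate block 59 genes were called. No label links the numbers, and of 18 same-number pairs only 5 correlated above 0.1 (r from -0.41 to 0.49), so no pairing was used; 6 of 12 arrays correlated best with their own number. Over the 170 named genes, 492 of the values under alternatives lost a call and 37 gained one. Another 61 changed sign without a call in either fit, and 3644 kept both their sign and their side of the threshold. Of the list medians, 67 moved by more than the spread between replicates and 1083 did not. With 3 arrays per group, differences under about 1 are rarely callable, and dim genes depend on the pseudocount. The causes of these changes were not tested.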
